A study of Mus musculus with 3 samples.

Results

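Interferon-response T cells were the intratumoral CD8 T cells with the most transcripts of 8 interferon-stimulated genes, namely Ifit1, Ifit3, Ifit3b, Isg15, Rsad2, Usp18, Rtp4 and Slfn5. The interferon score of a cell was the number of UMIs (unique molecular identifiers, each standing for 1 captured transcript) of these genes per 10000 UMIs of the cell. Members were chosen by this score, as the 10% of all kept cells with the highest values, which gave 2845 of 28452 cells from 3 libraries. The levels of the 8 genes therefore chose the members and are given only as a description. Since the score was read from the same transcripts, every comparison of members with the other cells is a description as well.

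The cells were Thy1.1+CD8+ pmel T cells, which carry a transgenic T cell receptor for the melanoma antigen gp100, recovered from B16F10 melanomas of C57BL/6 mice. They had been cultured for 6 days with 10 nM cytokine, with gp100 peptide in the first part of the culture only. They were transferred 5 days after tumor injection into mice given 6 Gy of radiation. The mice then received 4 doses of 2.5 µg of protein 48 hours apart. In the sIL-2 library, culture and injections used super IL-2, an IL-2 variant with high affinity for IL-2Rβ. In the IL-2/21-Trikine library both used the Trikine, in which super IL-2 is fused to a binder of the IL-21 receptor so that STAT5 and STAT3 signals are given together. In the sIL-2 + IL-21 library the culture held both cytokines and the mice were injected with sIL-2 alone. Tumors were harvested on day 18, and the receptor transgene, tumor line, radiation and sort were shared by all groups, so that no group without cytokine was analysed here. All cells carry 1 engineered receptor, and the number of mice per library was not given in the sources used here. With 1 library per condition, treatment and library cannot be told apart and no difference could be tested. Ranges in parentheses are 95% intervals that cover counting error only. Where 3 values follow each other, the first is from the sIL-2, the next from the IL-2/21-Trikine and the last from the sIL-2 + IL-21 library. The libraries shared 31, 18 and 43 cell barcodes by pair, under 0.5% of the smaller library in each pair.

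Type I interferons bind the receptor formed by IFNAR1 and IFNAR2, whose kinases JAK1 and TYK2 phosphorylate STAT proteins. With IRF9 these factors bind the interferon-stimulated response element (ISRE) before antiviral genes, while IFN-γ acts mainly through the gamma-activated sequence (GAS). T cells with this program are seen in many tumors, and interferon is known to raise antigen presentation and to restrain proliferation. Among the score genes, the Ifit genes encode proteins that bind foreign RNA, Isg15 a ubiquitin-like modifier, Rsad2 the antiviral enzyme viperin, and Usp18 a protease that removes ISG15 and restrains signaling at the receptor.

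The 200 bases before the annotated start are printed for 5 score genes, because they show the element through which the signature is known to be driven. They are from RefSeq on GRCm38.p6, 5′ to 3′ on the strand of the gene, and capitals mark the ISRE core GAAANNGAAA on either strand.
Isg15: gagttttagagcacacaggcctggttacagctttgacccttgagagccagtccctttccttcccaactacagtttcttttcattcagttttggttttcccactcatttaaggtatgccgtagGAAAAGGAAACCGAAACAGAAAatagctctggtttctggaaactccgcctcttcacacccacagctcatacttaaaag
Ifit1: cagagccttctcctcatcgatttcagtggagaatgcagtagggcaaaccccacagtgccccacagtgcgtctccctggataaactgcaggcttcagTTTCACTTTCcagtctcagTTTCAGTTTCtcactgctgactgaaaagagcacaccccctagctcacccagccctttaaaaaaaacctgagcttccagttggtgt
Ifit3: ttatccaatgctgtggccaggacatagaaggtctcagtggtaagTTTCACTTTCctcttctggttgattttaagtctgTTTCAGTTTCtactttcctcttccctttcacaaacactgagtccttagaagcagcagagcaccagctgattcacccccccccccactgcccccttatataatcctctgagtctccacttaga
Rsad2: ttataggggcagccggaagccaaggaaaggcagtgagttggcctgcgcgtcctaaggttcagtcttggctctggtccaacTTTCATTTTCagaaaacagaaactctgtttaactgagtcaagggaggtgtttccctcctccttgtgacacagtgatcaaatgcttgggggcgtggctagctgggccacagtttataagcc
Slfn5: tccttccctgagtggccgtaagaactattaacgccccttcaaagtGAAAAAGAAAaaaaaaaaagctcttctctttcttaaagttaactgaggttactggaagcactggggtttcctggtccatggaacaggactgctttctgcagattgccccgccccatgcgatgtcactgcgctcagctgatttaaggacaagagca
These windows are chr4:156200819-156201018 on the minus strand for Isg15, chr19:34640689-34640888 on the plus strand for Ifit1, chr19:34583329-34583528 on the plus strand for Ifit3, chr12:26456453-26456652 on the minus strand for Rsad2 and chr11:82951902-82952101 on the plus strand for Slfn5. Isg15 held 3 overlapping copies of the core, with first bases at -78, -72 and -66 from the start. Ifit1 held copies at -104 and -85 and Ifit3 at -156 and -122, both on the opposite strand. Rsad2 held 1 copy at -120, also on the opposite strand, and Slfn5 1 copy at -155. Of 27025 genes with a promoter in the table, 936 (3.46%) held the core within 250 bases before a start, and 2197 (8.13%) held the GAS letters TTCNNNGAA, which read alike on both strands. The table held 6 of the 8 score genes, too few for a share over the score to be read. A match describes the letters only and not binding.

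Members were unevenly spread over the libraries. They made up 1191 of 7494 cells (15.9%, 15.1 to 16.7) from the sIL-2 library, 1293 of 11524 (11.2%, 10.6 to 11.8) from IL-2/21-Trikine tumors and 361 of 9434 (3.83%, 3.45 to 4.23) from sIL-2 + IL-21 tumors. The 3 intervals did not overlap. Relative to sIL-2 + IL-21, the share was 4.15 times (3.71 to 4.65) as large in sIL-2 and 2.93 times (2.62 to 3.28) as large in IL-2/21-Trikine, and the IL-2/21-Trikine share was 0.706 times (0.656 to 0.760) the sIL-2 share. With every cell thinned to 2000 UMIs before scoring, these ratios were 3.86, 2.66 and 0.687. The pooled cut fixes the overall share at 10%, so that only the split over the libraries was measured.

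The cut fell among near-equal scores, as a percentile cut does. The lowest member had 8.34168 and the highest other cell 8.34028 score UMIs per 10000 UMIs. Within a factor of 2 of the cut lay 1435 members (50.4% of members) above it and 2110 other cells (8.24% of the other cells) below it. The median member had 16 score UMIs from 5 of the 8 genes, the median other cell had 1 score UMI, and 24 members had UMIs of at most 1 score gene. The 99th percentile of the score was 63.1, 45.7 and 21.3, and cells with a score of 0 made up 26.5%, 34.3% and 49.99% of the libraries. The libraries thus had the same order at the 99th percentile as at the cut, and the reverse order for cells at 0 and for the single highest score (152, 158 and 184).

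**Figure D1:**
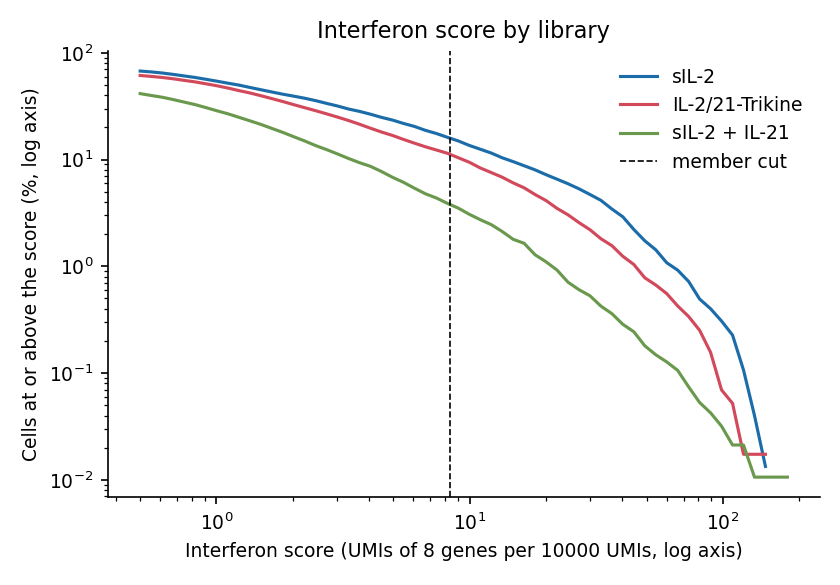
Share of kept cells (percent, log axis) at or above each value of the interferon score (UMIs of 8 genes per 10000 UMIs, log axis) for the 3 libraries, with the member cut as a dashed line. At the cut 15.9%, 11.2% and 3.83% of cells lie to the right, and no curve has a step there.

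Members had fewer UMIs than the other cells, with medians of 9290, 7447 and 7643 UMIs against 14361, 12207 and 14915. Mitochondrial UMIs made up a median of 1.14%, 1.21% and 1.31% in members and 1.30%, 1.33% and 1.35% in the other cells. Because depth moved with membership, the main comparisons were repeated in cells of 5000 to 10000 UMIs, a range chosen after seeing the data. In that range members made up 29.5% (27.6 to 31.5), 18.5% (17.3 to 19.7) and 7.95% (6.87 to 9.13) of the libraries. The shares were 12.4%, 6.67% and 2.54% from 10000 to 20000 UMIs and 6.40%, 3.74% and 0.941% above. In these 3 ranges the libraries had the same order, with no overlap of intervals. Under 5000 UMIs the shares were 21.9% (16.5 to 28.0), 23.02% (20.1 to 26.1) and 11.0% (8.54 to 14.0), and the sIL-2 and IL-2/21-Trikine intervals overlapped. The part of depth in the lower shares at high UMI counts was not tested.

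**Figure D2:**
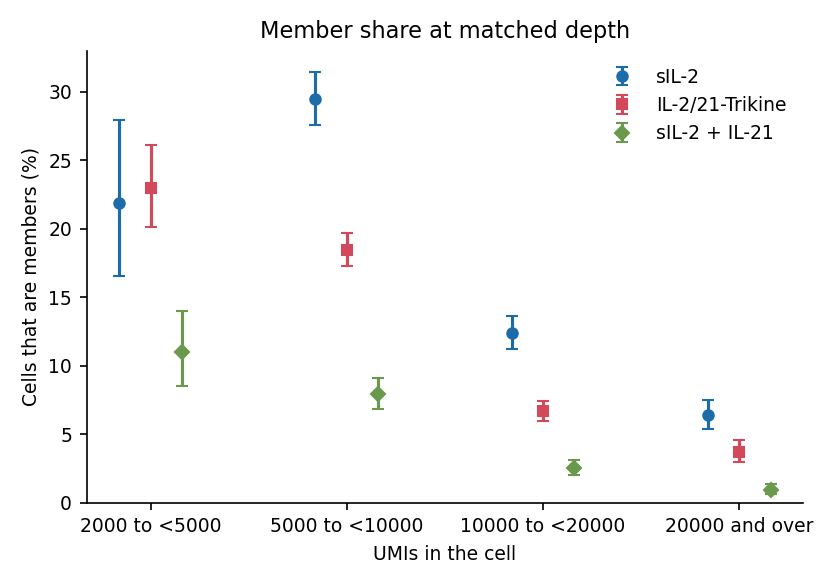
Share of cells that are members (percent) in 4 ranges of UMIs per cell for the 3 libraries, with exact binomial 95% intervals as bars. The sIL-2 + IL-21 library is lowest in every range, and the other two libraries overlap only under 5000 UMIs, at 21.9%, 23.02% and 11.0%.

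The score genes were at high levels in the members of all libraries, as the rule requires. Levels are given as CPM, the UMIs summed over the cells of a library per 1000000 UMIs without the score genes, and are not corrected for gene length. Isg15 stood at 852, 900.0 and 767 CPM in members and 55.1, 58.7 and 29.6 CPM in the other cells. Ifit3 stood at 307, 259 and 192 CPM against 7.83, 6.70 and 2.42 CPM and Ifit1 at 241, 167 and 175 CPM against 6.22, 4.71 and 2.10 CPM. The sIL-2 + IL-21 library had the lowest level of each of these genes in the other cells. Slfn5, of the Schlafen family, stood at 312, 207 and 215 CPM against 24.6, 14.6 and 10.6 CPM, and Rtp4, a chaperone of membrane receptors, at 235, 193 and 159 CPM against 26.5, 20.7 and 10.7 CPM. Rsad2 stood at 177, 116 and 107 CPM against 5.20, 3.35 and 1.41 CPM and Usp18 at 183, 142 and 116 CPM against 19.4, 14.9 and 7.13 CPM. Ifit3 and Ifit3b are near-identical copies, and the Gbp, IFI200, Phf11, H2-Q and Tgtp families also hold close copies, so that the division of UMIs within them is uncertain.

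Members also had higher levels of nearly all other interferon-stimulated genes measured. A gene was called higher or lower when the log2 ratio of members over other cells, with 1 CPM added to both, was at least 0.5 in that direction in all 3 libraries. Of 5414 genes with at least 20 CPM in members or other cells of every library, 342 (6.32%) were called higher and 239 (4.41%) lower. The list of other interferon-stimulated genes held antiviral effectors, interferon-induced GTPases, the IFI200 family and further Schlafen genes. Of its 98 genes, 73 passed the floor and 72 of these were called higher. A gene near the floor passes mainly when it is high in members, so the median log2 ratio was also taken over the 97 genes in the matrix, and was 1.96, 1.75 and 2.00 against -0.03, -0.02 and -0.02 over all 5414 genes. In cells of 5000 to 10000 UMIs it was 1.72, 1.58 and 1.77. With cells thinned to 2000 UMIs, a median of 22, 20 and 19 of the 97 genes had a UMI in a member, against 9, 9 and 7 in another cell. The interferon label thus holds for genes outside the score, which are known to move with it.

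Antiviral effectors formed the largest list, and all 44 of the 44 that passed the floor, of 58 listed, were called higher. Mx2, a dynamin-like GTPase that restricts viruses, stood at 32.6, 27.1 and 23.3 CPM in members and 1.18, 1.38 and 0.573 CPM in the other cells. Its log2 ratios were 3.94, 3.56 and 3.95. Oasl2, of the oligoadenylate synthetase family, stood at 46.7, 32.2 and 27.7 CPM against 2.30, 1.99 and 0.817 CPM, with log2 ratios of 3.85, 3.47 and 3.98. Ifit2, a partner of the Ifit proteins of the score, stood at 137, 95.6 and 98.9 CPM against 10.1, 10.9 and 8.27 CPM. For each of these genes the lowest of the 3 member levels was above the highest level in the other cells. Cmpk2, a nucleotide kinase gene next to Rsad2, had log2 ratios of 3.57, 3.31 and 3.78, and Ddx60, a helicase gene, of 3.10, 3.05 and 3.55. Effectors already abundant in the other cells had smaller ratios. Ifitm3, which blocks viral fusion, stood at 1188, 789 and 995 CPM against 560.2, 414 and 545 CPM (log2 ratios 1.08, 0.93 and 0.87), and Bst2, which tethers budding virus, at 834, 827 and 638 CPM against 288, 288 and 210.0 CPM (1.53, 1.52 and 1.60). Pnpt1, an RNA-processing exonuclease gene, had the smallest ratios of the effectors that passed the floor, 0.68, 0.70 and 0.68.

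The related families behaved in the same way. All 16 interferon-induced GTPase genes that passed the floor were called higher, of 19 listed. Gbp2, a guanylate-binding protein gene, stood at 109.8, 101 and 85.2 CPM in members and 26.1, 26.5 and 20.4 CPM in the other cells, and Irgm1, of the immunity-related GTPases, at 163, 116 and 106 CPM against 28.8, 26.5 and 19.9 CPM. Iigp1, of the same family, had log2 ratios of 2.85, 2.28 and 3.59. In the IFI200 family of nucleic acid-binding proteins, 8 of 9 that passed the floor, of 13 listed, were called higher. Ifi204 led them at 44.5, 26.1 and 37.0 CPM against 1.88, 1.51 and 0.872 CPM. The remaining member of that family was Aim2, the DNA sensor of the inflammasome, at 128, 118 and 137 CPM against 119, 111 and 112 CPM with log2 ratios of 0.10, 0.09 and 0.29. All 4 Schlafen genes outside the score that passed the floor, of 8 listed, were called higher. Among them were Slfn1 with log2 ratios of 1.97, 1.94 and 2.34 and Slfn2 with 0.84, 0.83 and 1.18. Since low genes pass the floor mainly when high in members, medians over all listed genes were also taken. They were 1.90, 1.78 and 2.15 for the GTPases, 2.04, 1.78 and 2.33 for IFI200 and 1.32, 0.99 and 1.29 for Schlafen genes. Of all tested genes 6.32% were called higher.

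**Figure D3:**
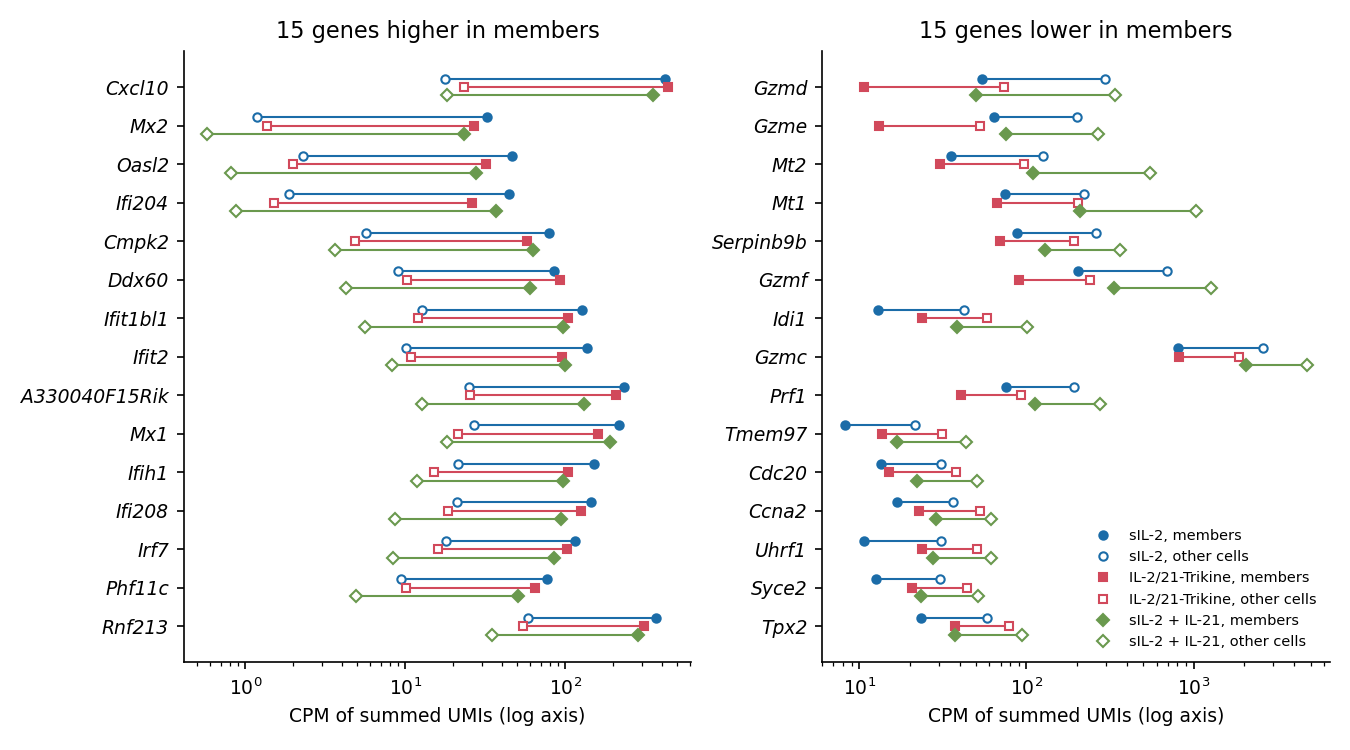
CPM of summed UMIs (log axis) of the 15 genes in each direction with the largest ratios, ordered by the smallest of the 3, as filled symbols for members and open symbols for the other cells of the same library. Cxcl10 leads the higher genes at 421, 440.3 and 353 CPM in members, and Gzmd leads the lower genes at 54.6, 10.7 and 50.2 CPM.

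Among the genes that detect foreign nucleic acid, the cytosolic RNA sensors were higher in members and the DNA-sensing pair was not called. Rigi (RIG-I) stood at 161, 135 and 131 CPM in members and 36.8, 30.6 and 25.4 CPM in the other cells, Ifih1 (MDA5) had log2 ratios of 2.76, 2.71 and 2.92 and Dhx58 (LGP2) of 2.37, 2.28 and 2.69. Cgas, the cytosolic DNA sensor, had log2 ratios of 0.18, 0.04 and 0.27, and Sting1, its adaptor, of 0.01, -0.10 and 0.17. These were 3 of 5 sensors called higher, of 8 listed, against 6.32% of all tested genes.

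The transcription factors of the pathway were higher as well, 6 of 7 against 6.32% of all tested genes. Stat2, a part of the complex that binds the ISRE, stood at 102, 86.7 and 81.9 CPM in members and 23, 20.9 and 17.5 CPM in the other cells, with log2 ratios of 2.11, 2.00 and 2.16. Irf7, the factor that amplifies type I interferon responses, stood at 115, 102 and 85.2 CPM against 18.0, 16.1 and 8.38 CPM, the largest ratios of this list (2.61, 2.59 and 3.20). Irf9, the DNA-binding partner of the STAT proteins in that complex, had log2 ratios of 1.17, 0.97 and 1.22, and Irf1, a target of IFN-γ and type I interferon, of 0.80, 0.78 and 1.11. Irf8 was the only tested factor lower in members of all 3 libraries, at 188, 126 and 186 CPM against 272, 205 and 239 CPM, and did not reach the call in each of them. In cells of 5000 to 10000 UMIs the log2 ratios of Irf7 were 2.07, 2.14 and 2.67.

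The receptor chains and kinases differed by less. Ifnar1 had log2 ratios of 0.21, 0.20 and 0.35 and Ifnar2 of 0.40, 0.24 and 0.43, and neither was called. Jak1 had log2 ratios of 0.32, 0.37 and 0.44 and Jak2, a kinase of the IFN-γ receptor, of 0.44, 0.51 and 0.86. Ifngr1, the ligand-binding chain of the IFN-γ receptor, was the 1 gene called higher of 5 tested, at 818, 667 and 611 CPM against 551, 451 and 412 CPM. Of 4 tested inhibitors outside the score, Socs1, an inhibitor of JAK kinases, was called higher with log2 ratios of 0.70, 0.74 and 0.56. The phosphatase genes Ptpn2 and Ptpn6 had log2 ratios of 0.06, 0.03 and 0.42 and of -0.26, -0.20 and -0.30. Over all tested genes 6.32% were called higher.

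No interferon gene other than Ifng was detected in members. The 18 type I and type III ligand genes had 0 UMIs in the members of every library, which allows up to 0.213, 0.243 and 0.822 CPM for their sum, and 4, 4 and 8 UMIs in the other cells. Members held 14115122, 12347258 and 3648649 UMIs in all, against 115720937, 152659934 and 164023543 in the other cells. With so few UMIs in members, these counts cannot tell members from the other cells. Ifng stood at 726, 339 and 537 CPM in members and 895, 644 and 669 CPM in the other cells, a lower level in members of each library. Its log2 ratios of -0.30, -0.92 and -0.32 passed 0.5 in the IL-2/21-Trikine library alone.

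Antigen presentation genes were higher by small factors, with 11 of 20 tested MHC class I genes called, against 6.32% of all tested genes. H2-K1, a classical class I heavy chain, stood at 3883, 3424 and 3057 CPM in members and 2676, 2397 and 1853 CPM in the other cells. B2m, the light chain, stood at 5697, 5651 and 5222 CPM against 4676, 4487 and 3690.4 CPM and was not called, with log2 ratios of 0.28, 0.33 and 0.50. Among the larger ratios were those of H2-Q4, a nonclassical class I gene (0.82, 0.76 and 1.04), of Nlrc5, the activator of class I transcription (0.99, 0.91 and 1.19), and of Tapbp, which loads peptide (0.95, 0.97 and 0.87). The immunoproteasome genes Psmb8 and Psmb9 were not called (0.33, 0.30 and 0.17 and 0.38, 0.27 and 0.33). The list median was 0.58, 0.55 and 0.72, and 0.48, 0.49 and 0.53 in cells of 5000 to 10000 UMIs. Among the Ly6 genes, which encode surface proteins of T cells that interferon raises, Ly6a stood at 1277, 1263 and 1195 CPM against 507, 562 and 497 CPM and Ly6c2 at 1161, 1142 and 888 CPM against 489, 496 and 267 CPM, and both were called higher.

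**Figure D4:**
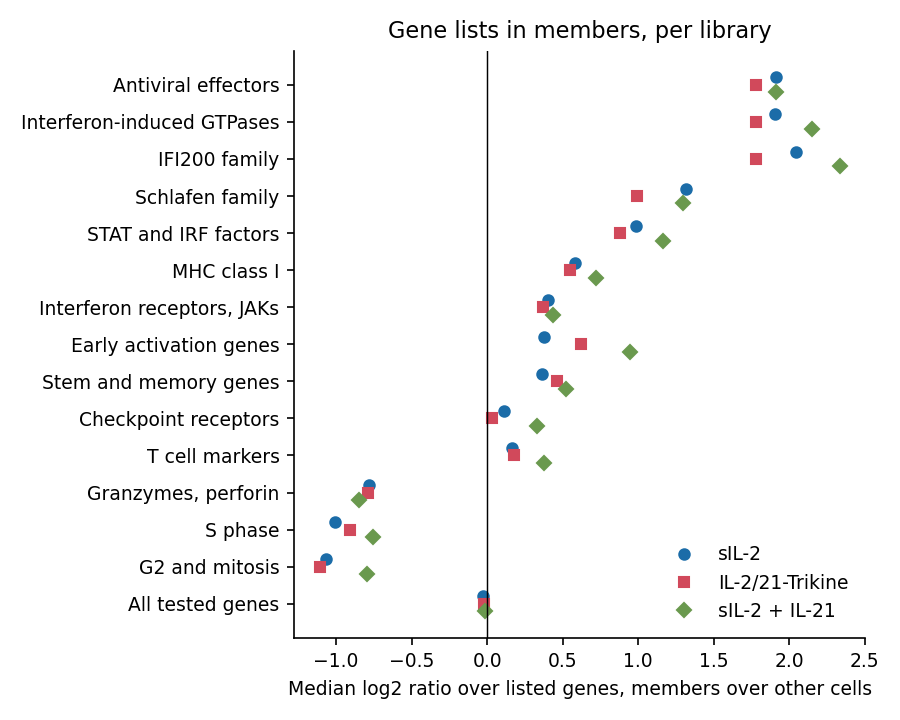
Median log2 ratio of members over other cells over all measured genes of each list, with 1 symbol per library. Antiviral effectors lie at 1.91, 1.78 and 1.91, MHC class I genes at 0.58, 0.55 and 0.72, S phase genes at -1.01, -0.91 and -0.76, and all tested genes at -0.03, -0.02 and -0.02.

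Cxcl10, a chemokine that attracts T cells through CXCR3, led the genes outside the score by the smallest of the 3 ratios, and Ifi204 exceeded it in the sIL-2 + IL-21 library (log2 4.34). It stood at 421, 440.3 and 353 CPM in members and 17.7, 23.3 and 18.1 CPM in the other cells, with log2 ratios of 4.49, 4.18 and 4.21, and with 4.64, 4.54 and 4.06 in cells of 5000 to 10000 UMIs. A minority of members carried it. In cells thinned to 2000 UMIs a Cxcl10 UMI was found in 17.5%, 20.5% and 16.1% of members and 2.00%, 2.76% and 2.35% of the other cells (unthinned, 29.97%, 31.6% and 31.0% and 9.27%, 10.6% and 9.17%). The 10 members with the most UMIs held 27.1%, 19.8% and 43.3% of all Cxcl10 UMIs of the members. The related ligands Cxcl9 and Cxcl11 were under 2 CPM in members of every library. Ccl5, a chemokine of effector and memory T cells, stood at 4542, 2151 and 2531 CPM against 2003, 843 and 859 CPM. A Ccl5 UMI was found in 1168 of 1191, 1194 of 1293 and 320 of 361 members, and in 94.7%, 83.4% and 77.2% of the other cells. In cells thinned to 2000 UMIs it was found in 91.5%, 76.6% and 73.1% of members and 72.4%, 52.4% and 43.0% of the other cells. The log2 ratios of Ccl5 of 1.18, 1.35 and 1.56 were 0.32, 0.49 and 0.29 in cells of 5000 to 10000 UMIs, below the call.

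Several granzyme genes and perforin were lower in members. Of 9 tested cytotoxic genes 5 were called lower and 1, Fasl, higher, against 4.41% lower and 6.32% higher of all tested genes. Gzmd stood at 54.6, 10.7 and 50.2 CPM in members and 295, 73.8 and 339 CPM in the other cells, with log2 ratios of -2.41, -2.68 and -2.73. Gzmc, the most abundant granzyme gene among those called, stood at 807, 813 and 2061 CPM against 2585, 1874 and 4740.2 CPM, and Prf1, the pore-forming protein, at 75.7, 40.4 and 112 CPM against 192, 92.2 and 276 CPM. In each library the level in the members was below that in the other cells for these genes. Gzma and Gzmb, the main granzymes of killer cells, were not called, with log2 ratios of -0.22, -0.18 and -0.21 and -0.14, 0.03 and -0.50. Fasl, the death ligand, had log2 ratios of 0.56, 0.54 and 0.78. In cells of 5000 to 10000 UMIs the log2 ratios were -0.39, -2.14 and -1.21 for Gzmd, -0.52, -1.05 and -0.89 for Gzmc and 0.03, -0.31 and -1.07 for Prf1, so that Gzmd in sIL-2 and Prf1 in sIL-2 and IL-2/21-Trikine no longer passed 0.5. The list median was -0.78, -0.79 and -0.85 over all kept cells and 0.06, -0.20 and -0.60 in that range, and the log2 ratio of the summed list was -0.50, -0.32 and -0.61 and 0.20, 0.13 and -0.17. Among cells of like depth the summed level was thus higher in members of sIL-2 and IL-2/21-Trikine and lower in those of sIL-2 + IL-21.

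Genes of cell division were the most uniform group of lower genes. Of S phase genes 14 of 16 and of G2 and mitosis genes 15 of 15 were called lower, against 4.41% of all tested genes. Mki67, a marker of cycling cells, stood at 69.2, 98.0 and 126 CPM in members and 138, 187 and 205 CPM in the other cells, and Top2a, the topoisomerase of dividing cells, at 124, 187 and 207 CPM against 231, 370.1 and 347 CPM. Rrm2, which makes nucleotides for DNA synthesis, had log2 ratios of -1.38, -1.07 and -0.74. The list medians were -1.01, -0.91 and -0.76 for S phase and -1.06, -1.11 and -0.79 for G2 and mitosis. In cells of 5000 to 10000 UMIs they were -0.27, -0.07 and -0.74 and -0.55, -0.23 and -0.56, with Mki67 at -0.53, -0.01 and -0.41. The medians were closer to 0 in that range in sIL-2 and IL-2/21-Trikine, while the S phase median of sIL-2 + IL-21 was almost as low as over all kept cells. The log2 ratio of the summed S phase list of sIL-2 + IL-21 was -0.76 over all kept cells and -0.44 in that range, so that it did move. The part of depth in the difference was not tested. Outside the lists, the metallothionein genes Mt1 and Mt2, which bind zinc, were also among the 15 lowest, with Mt1 at 74.6, 66.7 and 209 CPM against 220.1, 204 and 1030.0 CPM.

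Stem and memory genes were higher in part, 4 of 10 tested against 6.32% of all tested genes. Tcf7, which encodes the TCF1 factor of stem-like T cells, stood at 107, 98.5 and 68.8 CPM in members and 54.7, 56.8 and 20.6 CPM in the other cells. Il7r, the receptor for the survival cytokine IL-7, stood at 335, 445 and 433 CPM against 208, 252 and 263 CPM, and S1pr1 and Klf2, which govern exit from tissue, had log2 ratios of 1.23, 1.20 and 1.10 and 0.53, 0.76 and 1.03. Lef1, Bach2 and Ccr7 were not called, and Ccr7 had log2 ratios of -0.53, -0.16 and 0.12, of both signs. In cells of 5000 to 10000 UMIs the log2 ratios of Tcf7 were 0.09, 0.45 and 0.79 in place of 0.95, 0.78 and 1.69, and those of Il7r 0.51, 0.63 and 0.42. The list median was 0.36, 0.46 and 0.52 over all kept cells and 0.00, 0.21 and 0.05 in that range. Most of the Tcf7 difference in the sIL-2 library was thus not seen among cells of like depth.

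None of 9 tested checkpoint genes was called. Pdcd1, encoding PD-1, had log2 ratios of -0.62, -0.63 and -0.12 and Havcr2, encoding TIM-3, of -0.46, -0.35 and -0.20, while Ctla4 had 0.32, 0.37 and 0.41 and Tox, a factor of exhausted T cells, 0.41, 0.08 and 0.65. The list median was 0.11, 0.03 and 0.33 over all kept cells and -0.14, -0.14 and -0.06 in cells of 5000 to 10000 UMIs. Early activation genes were higher in part, 4 of 13, with Cd69, a retention and activation marker that interferon also raises, at 765, 922 and 985 CPM against 376, 382 and 388 CPM and Egr3, a target of receptor signaling, at 97.6, 69.7 and 89.3 CPM against 40.1, 26.5 and 24.03 CPM. The log2 ratios of Cd69 in cells of 5000 to 10000 UMIs were 0.57, 1.02 and 0.68, while the list median went from 0.38, 0.62 and 0.95 to -0.01, 0.38 and 0.33 there and was near 0 in sIL-2. Of 11 tested targets of STAT5 and STAT3, Socs1 and Bcl6 were called higher, and Cish, a STAT5 target, was not (0.43, 0.52 and 0.57). Of 12 cytokine and chemokine genes only Tnf was called, at 65.8, 45.2 and 54.8 CPM against 35.0, 26.0 and 30.4 CPM. Xcl1, a chemokine for cross-presenting dendritic cells, had log2 ratios of -1.15, -1.15 and -0.27 over all kept cells and -1.01, -1.28 and -2.02 in cells of 5000 to 10000 UMIs. Hspd1 of 7 heat shock genes and Bnip3 of 7 hypoxia genes were called lower, and no gene of these lists higher. Over all tested genes 6.32% were called higher and 4.41% lower. The 8.33% of cytokine and chemokine genes called higher was near that share.

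In all, 342 genes were called higher and 239 lower, and these counts depended on depth. In cells of 5000 to 10000 UMIs 180 genes were called higher, 168 of them among the 342, and 47 lower, 21 of them among the 239. Fewer cells enter in that range, and the cause of the lower counts was not tested.

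The interferon program was graded below the cut. All cells were divided into those with a score of 0, those above 0 up to the 50th percentile, 4 groups of 10 percentiles and the members. The summed level of the 97 other interferon-stimulated genes was 4589 CPM at score 0, 4618, 5927, 6723, 8095 and 10454 CPM in the groups up to the 90th percentile, and 17904 CPM in members. Cxcl10 stayed between 13.1 and 27.6 CPM up to the 80th percentile, stood at 55.8 CPM just below the cut and at 421 CPM in members. These values pool libraries whose shares differ between groups. Depth also moved along the score, with median UMIs per cell of 12635.5, 23104, 12414.5, 13099, 10690, 9726 and 8333. At 5000 to 10000 UMIs the other cells summed to 9079, 8107 and 6990 CPM for this list, against 6634, 6418 and 4669 CPM over all other cells. The part of depth in the gradient was not tested. Within libraries the list summed to 5186, 5218 and 3961 CPM at score 0 and 4930.3, 5131 and 4065 CPM in the next group, lower there in sIL-2 and IL-2/21-Trikine, and from that group on it climbed at each step in every library. Cxcl10 was concentrated at the upper end. Gzmc was 2943, 1937 and 5007 CPM at score 0, 1235, 1255 and 2519 CPM just below the cut and 807, 813 and 2061 CPM in members. The G2 and mitosis genes summed to 1105, 1560.5 and 1940.4 CPM at score 0 and 582, 802 and 1097 CPM in members. In the group just above 0 they summed to 2018, 2624 and 2252 CPM, higher than at score 0 in every library. Over all libraries the group just above 0 stood apart with a median of 23104 UMIs per cell against 8333 in members, since a single score UMI gives a low score only in a deep cell. In that group Gzmc was highest, at 4406 CPM, and Tcf7 lowest, at 22.6 CPM.

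**Figure D5:**
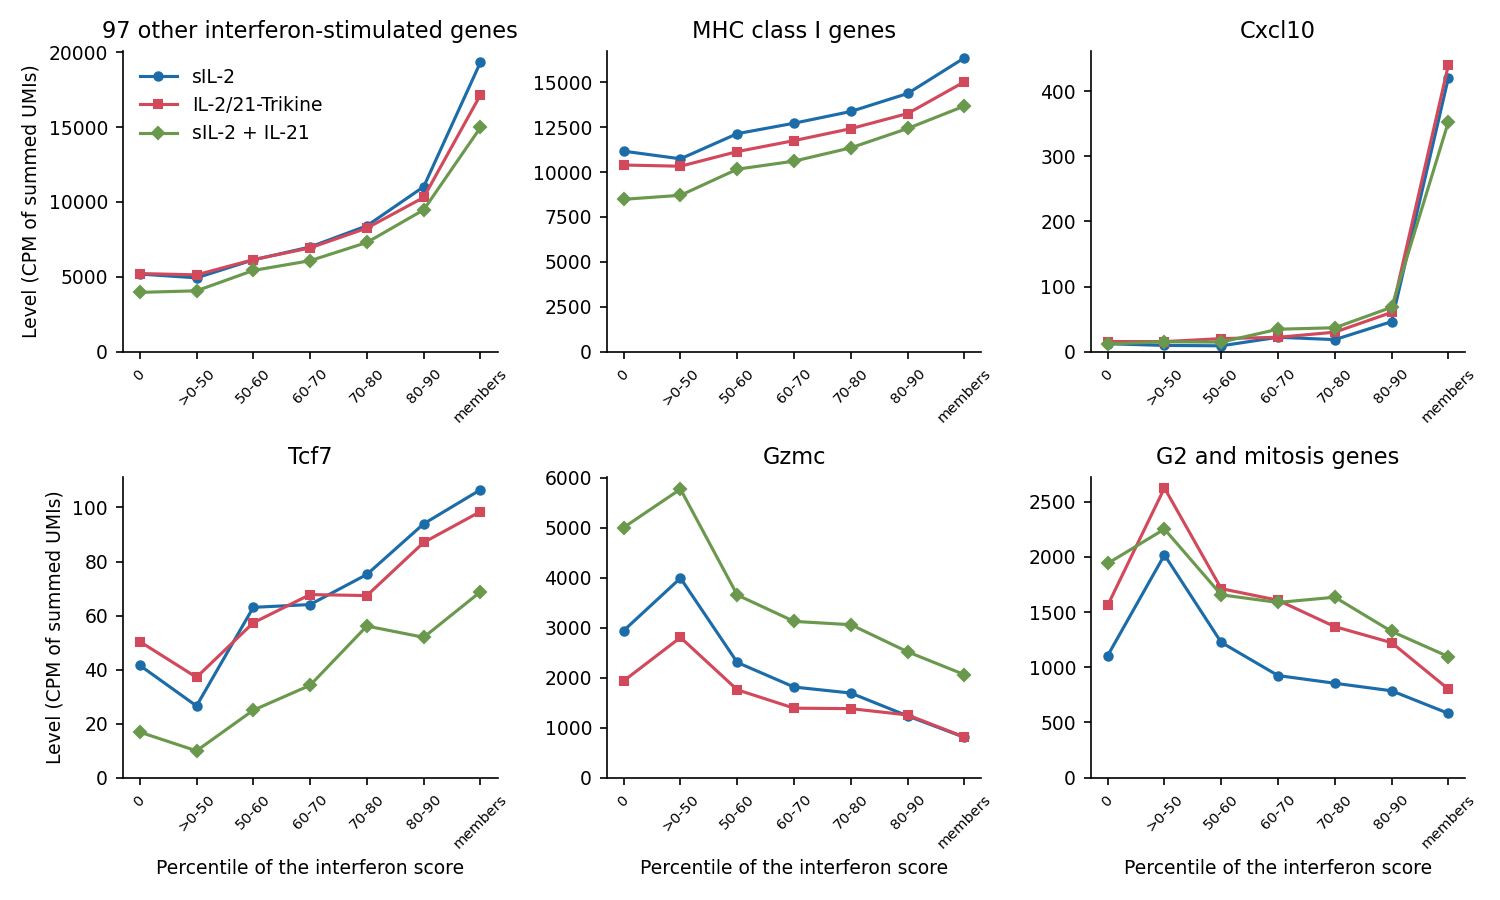
Level (CPM of summed UMIs) of the 97 other interferon-stimulated genes, MHC class I genes, Cxcl10, Tcf7, Gzmc, and G2 and mitosis genes, against the percentile of the interferon score, with 1 line per library. The interferon-stimulated genes climb in each library from the group just above 0 to 19324, 17148 and 14972 CPM in members, while Cxcl10 is low in every group below the cut and stands at 421, 440.3 and 353 CPM in members.

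Members differed widely among themselves. In 5 equal groups of 569 members by score, the 97 other interferon-stimulated genes summed to 13126 CPM in the lowest and 28933 CPM in the highest. Cxcl10 went from 119.8 to 1623 CPM, with 291 CPM in the fourth group. Ccl5 went from 2904 to 4613 CPM. Interferon genes therefore continued to climb inside the members. The groups pool libraries, with 86 sIL-2 + IL-21 members in the lowest and 41 in the highest. Within libraries Gzmc was 1238, 809 and 2735 CPM in the lowest and 356, 523 and 473 CPM in the highest group. Over all libraries the G2 and mitosis genes summed to 876 and 358 CPM. Median UMIs per cell were 9069 and 7663 in these groups. Tcf7 stood at 102, 104 and 64.6 CPM in the lowest and 105, 103 and 119.9 CPM in the highest group, so that it differed most in sIL-2 + IL-21 members.

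Nearly all members carried T cell transcripts, and some also carried those of other cells. A UMI of Cd3d, Cd3e or Cd3g was found in 2839 of 2845 members. Cd3e stood at 808, 717 and 754 CPM in members and 714, 611 and 598 CPM in the other cells, and Cd8a at 398, 319 and 308 CPM against 369, 313 and 231 CPM. At least 2 UMIs of the 10 myeloid markers were found in 71 members, of which 67 also had a Cd3 UMI, and of the 5 melanoma markers in 11 members. Myeloid markers summed to 56.0, 34.8 and 39.2 CPM in members and 14.8, 16.6 and 13.0 CPM in the other cells, and 2 of the 10 had 0 UMIs in the members of each library (C1qc and Adgre1, C1qb and C1qc, and Csf1r and Adgre1). Lyz2 was the most abundant in sIL-2 and IL-2/21-Trikine members, with 338 and 201 UMIs, and Cd14 in sIL-2 + IL-21 members, with 48. Single cells held 234, 112 and 61 of the 791, 430 and 143 myeloid UMIs. Melanoma markers summed to 6.80, 67.3 and 4.66 CPM in members and 5.78, 3.55 and 1.98 CPM in the other cells, and 778 of the 831 UMIs in IL-2/21-Trikine members lay in 1 cell. At least 2 UMIs of the 5 dendritic cell markers were found in 8.31%, 3.87% and 4.16% of members and 13.9%, 8.26% and 11.9% of the other cells, nearly all from Itgax and H2-Ab1, while Clec9a had 0 UMIs in members. These shares were not taken at equal depth, and members had fewer UMIs per cell than the other cells. The dendritic cell markers summed to 31.5, 40.3 and 27.4 CPM against 32.0, 29.5 and 29.7 CPM and B cell markers to 2.98, 2.11 and 2.74 CPM against 2.30, 2.04 and 1.70 CPM. The 4 plasmacytoid dendritic cell markers summed to 1029, 959.7 and 831 CPM against 567, 500.5 and 462 CPM, and in members most of this was Bst2, which the antiviral list also holds. Of the other markers, Siglech had 0 UMIs in all kept cells, Tcf4 stood at 6.80, 6.88 and 6.85 CPM against 7.70, 6.98 and 13.3 CPM and Irf8, with the values given above, was not called. Cd4 and Foxp3, of helper and regulatory T cells, stood at 0.425, 0 and 0.822 CPM against 0.415, 0.229 and 1.22 CPM and at 2.05, 0.405 and 1.92 CPM against 1.01, 0.236 and 0.451 CPM. The part of these cells in the differences was not tested. Without all cells of 2 or more UMIs of the myeloid, melanoma and hemoglobin genes together, while those with dendritic or B cell UMIs were kept, the median log2 ratio of the other interferon-stimulated genes was 1.92, 1.72 and 1.96, and Cxcl10 stood at 4.38, 4.15 and 4.24.

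Members of different libraries were then compared with each other, for each pair of libraries. The pairs share libraries and are not independent. A gene was called at a log2 ratio of at least 0.5 with at least 20 CPM in either library. In IL-2/21-Trikine members 122 (2.16%) of 5658 genes were called higher than in sIL-2 members and 306 (5.41%) lower. Against sIL-2 + IL-21 members, 105 (1.87%) of 5619 genes were higher in IL-2/21-Trikine members and 222 (3.95%) lower, and 393 (6.87%) of 5719 were higher in sIL-2 members and 249 (4.35%) lower. With median-of-ratios size factors in place of total UMIs, the counts were 218 higher and 187 lower for the first pair and 237 higher and 372 lower for the last, so that their balance depended on the scaling.

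The interferon genes themselves differed by small factors between the members of the 3 libraries. Members of every library lay above the same cut on the score, and these genes are known to move with the score. Small differences between members are therefore partly set by the rule and are given as a description. Between IL-2/21-Trikine and sIL-2 members, 0 of 80 other interferon-stimulated genes were called higher in the former and 8 lower, with a median log2 ratio of -0.21 in members and -0.11 in the other cells. Against sIL-2 + IL-21, 4 of 76 were higher in IL-2/21-Trikine members and 2 lower (median 0.16, other cells 0.34). In sIL-2 members, 20 of 80 were higher than with sIL-2 + IL-21 and 1 lower (median 0.39, other cells 0.45). The list summed to 19324, 17148 and 14972 CPM in members and 6634, 6418 and 4669 CPM in the other cells. The sIL-2 + IL-21 library was lowest in both. Trim30d, an interferon-induced TRIM gene, stood at 93.3, 83.6 and 49.9 CPM in members, with a ratio between the IL-2/21-Trikine and the sIL-2 + IL-21 library of 0.73 (log2) in members and 1.38 in the other cells.

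Effector genes separated the libraries inside the members. Gzma stood at 3421, 980.1 and 4114 CPM in members, and the log2 ratios of IL-2/21-Trikine members were -1.80 to sIL-2 (-1.85 in the other cells) and -2.07 to sIL-2 + IL-21 members (-2.10). Of 10 tested cytotoxic genes, 6 and 7 were called lower in these 2 pairs and none higher. Over all tested genes 5.41% and 3.95% were called lower in these pairs. Ccl5 stood at 4542, 2151 and 2531 CPM in members and 2003, 843 and 859 CPM in the other cells. Havcr2 stood at 111, 46.3 and 127 CPM against 153, 59.4 and 146 CPM and Pdcd1 at 117, 67.6 and 158 CPM against 179.8, 105 and 172 CPM. The IL-2/21-Trikine library was lowest for each of these genes, in members and in the other cells. Of 12 tested cytokine and chemokine genes 8 were called lower in IL-2/21-Trikine than in sIL-2 members and 8 lower than in sIL-2 + IL-21 members. Among them were Il3, a growth factor for myeloid cells, at 48.7, 3.73 and 23.6 CPM against 54.8, 21.6 and 46.1 CPM and Ifng at 726, 339 and 537 CPM against 895, 644 and 669 CPM. The log2 ratio of the summed list was -0.40 to sIL-2 and -0.42 to sIL-2 + IL-21 in members, and -0.26 and 0.28 in the other cells. To sIL-2 + IL-21 the summed list thus had the opposite sign in the other cells, where its median log2 ratio was -0.10.

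Ccr7, which guides T cells to lymph nodes, was higher in IL-2/21-Trikine members, at 210.0, 417 and 263 CPM, with a log2 ratio to sIL-2 of 0.99 in members and 0.62 in the other cells. Chd3, a chromatin remodeler gene, stood at 57.5, 56.8 and 24.4 CPM, and Gpr174, a lysophosphatidylserine receptor gene, at 139.9, 138 and 79.5 CPM. Both were lowest in the sIL-2 + IL-21 library. The log2 ratios of IL-2/21-Trikine to that library were 1.19 in members and 0.87 in the other cells for Chd3, and 0.79 and 0.86 for Gpr174.

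Division genes were lowest in sIL-2 members. Against sIL-2 members, 12 of 15 S phase and 6 of 12 G2 and mitosis genes were called higher in IL-2/21-Trikine members, and against sIL-2 + IL-21 members 13 of 15 and 15 of 15 were lower in sIL-2 members. Over all tested genes these shares were 2.16% and 4.35%. Pclaf, a PCNA-associated factor of S phase, stood at 85.2, 162 and 258 CPM in members, and H3c3, a histone gene, at 27.6, 53.9 and 81.7 CPM. Their log2 ratios of IL-2/21-Trikine to sIL-2 were 0.92 and 0.94 in members and 0.73 and 0.57 in the other cells. The other cells had the same order, with median log2 ratios of the S phase list of 0.64 and -0.67 in these pairs, against 0.80 and -0.92 in members. The difference between libraries was therefore not confined to members. At 5000 to 10000 UMIs the summed S phase list stood at 278, 355 and 300 CPM in members, in place of 470, 742 and 824 CPM. The G2 and mitosis list stood at 116, 220 and 305 CPM there, in place of 582, 802 and 1097 CPM. The sIL-2 members remained lowest in that range, while for S phase IL-2/21-Trikine members were above those of sIL-2 + IL-21. The part of depth in these differences was not tested.

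Further genes were higher in sIL-2 + IL-21 members. Nrgn, a calmodulin-binding protein gene, stood at 44.8, 62.0 and 178 CPM, Filip1, a filamin-interacting protein gene, at 16.6, 20.2 and 70.2 CPM and Ly6a2, of the Ly6 family, at 25.6, 12.6 and 81.1 CPM. The log2 ratios of the sIL-2 to this library were -1.97 in members and -0.99 in the other cells for Nrgn, -2.01 and -1.25 for Filip1 and -1.62 and -0.63 for Ly6a2. All 3 genes had the same sign in the other cells. Trgc4, a constant segment of the γ receptor chain, was highest in sIL-2 members at 119, 42.4 and 34.3 CPM, with log2 ratios to the sIL-2 + IL-21 library of 1.77 in members and 1.76 in the other cells.

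Several of the most extreme ratios between libraries rested on 1 or a few cells. The hemoglobin gene Hbb-bs had 3901 UMIs in sIL-2 members, 3891 of them in 1 cell, and the other hemoglobin genes Hbb-bt, Hba-a1 and Hba-a2 had 1975 of 1978, 1620 of 1622 and 1306 of 1308 UMIs in 1 cell. Retnlg, a neutrophil gene, had 448 UMIs in sIL-2 + IL-21 members, 446 of them in 1 cell, and S100a8 and S100a9, also of neutrophils, had 547 of 637 and 202 of 348 UMIs in 1 cell there. Cxcl2, a chemokine of myeloid cells, was found in 10, 5 and 3 members. H2-Aa, a class II gene, had 750 UMIs in IL-2/21-Trikine members, 365 of them in 1 cell. Cd74, the class II invariant chain, had 958 UMIs there, of which 10 cells held 54.8%, but its ratio to sIL-2 did not rest on these cells alone. A Cd74 UMI was found in 207 of 1293 IL-2/21-Trikine and 74 of 1191 sIL-2 members. The log2 ratio of Cd74 between these libraries was 2.82 in members and 1.67 in the other cells. Without cells of 2 or more myeloid, melanoma or hemoglobin UMIs, the log2 ratio of H2-Aa in members over other cells of the IL-2/21-Trikine library was 0.08 in place of 2.42. Without these cells, members of the 3 libraries stood at 0.301, 5.003 and 1.74 CPM for H2-Aa and 9.32, 37.8 and 38.6 CPM for Cd74. Both genes thus stayed higher in IL-2/21-Trikine than in sIL-2 members, while Cd74 was no longer above its level in sIL-2 + IL-21 members.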

How the data were processed

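Single-cell 3' libraries of sorted tumor T cells were made with 10x Genomics chemistry, and the authors deposited filtered matrices of UMI counts from Cell Ranger 9.0.0 (file header), with 1 matrix per library. The study's methods name GRCm39 as reference, while the submitters' processing notes name mm10. Counts per gene are whole numbers without normalization. The matrices held 7805, 13350 and 9871 barcodes, of which the study's stated filter (500 to 120000 UMIs, at most 20% mitochondrial) leaves 7760, 13299 and 9798. Here 2000 to 120000 UMIs and at most 20% mitochondrial UMIs were required, which left 7494, 11524 and 9434 cells with 129886211, 165051207 and 167689133 UMIs, and removed 3.82%, 13.6% and 4.38% of barcodes for low UMIs.

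Members were the highest 10% of pooled cells by score. Counts were summed over the members and the other cells of a library, without score genes and 641 T cell receptor and immunoglobulin variable segments, scaled to CPM and compared as log2(CPM + 1), which understates ratios of low genes. No test was run, since cells are not replicates. The study's rank test over cells was not used. Named genes were the score genes, all genes of 31 lists, the 15 highest and 15 lowest over other cells by the smallest of 3 log2 ratios, and for each pair the 5 highest and 5 lowest with at least 50 CPM. Single values of some listed genes are not reported here. Members and lists were chosen with earlier results of these data known. The planned 10 equal groups along the score could not be formed, because 37.5% of cells tied at 0, and 7 groups were used. Scrublet's automatic calls marked 3, 0 and 0 cells and so did not work here, and no doublets were removed, except in an alternative without the 6% of highest doublet scores. Cells thinned to 2000 UMIs were ranked with ties broken at random (1297 cells tied at the cut), and 2154 members were shared with the unthinned choice. Shares have exact binomial intervals, and share ratios intervals from log binomial standard errors. Promoters were matched by symbol to a RefSeq table. Python 3.11.15, numpy 2.4.6, scipy 1.17.1, pandas 2.3.3, scanpy 1.11.5 and matplotlib 3.10.9 were used, and the summing and ratio steps were tested on simulated data. Alternatives changed the depth and mitochondrial filters, score, cut, floor, scaling and doublet handling.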

Additional observations from a re-analysis of the deposited data

Results flagged for a closer look

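The genes Il2, Iigp1 and Lyz2 had ratios of opposite sign past 0.5 in a pair of groups, and none of these differences was tested. Il2, the growth factor that activated T cells make, had a log2 ratio of members over other cells of -0.56 in the IL-2/21-Trikine library and 0.57 in the sIL-2 + IL-21 library. Iigp1, an interferon-induced GTPase gene, had a log2 ratio of IL-2/21-Trikine to sIL-2 + IL-21 of -0.62 in members and 0.70 in the other cells. Lyz2, the lysozyme gene of myeloid cells, had a log2 ratio of IL-2/21-Trikine to sIL-2 of -0.53 in members and 1.83 in the other cells. Between the sIL-2 and sIL-2 + IL-21 libraries its ratios were 1.44 and -0.52. A Lyz2 UMI was found in 1.01%, 0.851% and 1.11% of members and 0.571%, 0.889% and 0.584% of the other cells, and a single cell held 234 of 791 myeloid UMIs in sIL-2 members and 112 of 430 in IL-2/21-Trikine members, so that these ratios rest on few cells.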

How the results depend on the processing

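With 1 library per condition there was no test, and an alternative counts as different here when a ratio left its counting interval, a list's median moved beyond the median counting error of its genes, or a count changed by over 1.5 times. Of 209 values under 16 alternatives chosen with earlier results known and 1 chosen after seeing the data, 151 stayed within these limits and 58 did not. The share ratios kept their direction under every alternative run on them. Cells of 2000 to 5000 UMIs taken alone were not among these alternatives. There the IL-2/21-Trikine share (23.02%) was above that of sIL-2 (21.9%), with overlapping intervals. The IL-2/21-Trikine share divided by that of sIL-2 was 0.655 in cells from 5000 UMIs, 0.613 with the highest 5% as members, 0.771 with the highest 20%, 0.615 without Isg15 and 0.621 with z-scored genes. Divided by the sIL-2 + IL-21 share, that of IL-2/21-Trikine was 3.32 with the highest 5% and 2.28 with the highest 20%, and that of sIL-2 was 5.42, 2.95 and, with z-scored genes, 4.73. The median log2 ratio of the other interferon-stimulated genes was 1.77, 1.54 and 1.75 with cells thinned to 2000 UMIs, 2.19, 2.01 and 2.40 with the highest 5%, 1.66, 1.41 and 1.55 with the highest 20% and 1.72, 1.58 and 1.77 in cells of 5000 to 10000 UMIs. With the highest 10% of each library it was 2.15 in sIL-2 and 1.55 in sIL-2 + IL-21. Of genes called in members over other cells, 538 were higher and 491 lower at a floor of 1 CPM, 126 were lower at 50 CPM, 392 lower with the highest 5% and 149 with the highest 20%, and 180 were higher and 47 lower in cells of 5000 to 10000 UMIs. The counts between libraries moved most with the floor, which sets how many genes are tested. At 1 CPM they were 623 higher and 891 lower in IL-2/21-Trikine against sIL-2 members (first pair), 824 and 1071 in IL-2/21-Trikine against sIL-2 + IL-21 (next pair), and 1220 and 1085 in sIL-2 against sIL-2 + IL-21 members (last pair). At 50 CPM they were 51 and 167, 31 and 110, and 203 and 111. In the first pair, 71 were higher without Isg15, 203 with the highest 10% of each library and 218 with median-of-ratios size factors, which gave 187 lower, and 496 were lower in cells of 5000 to 10000 UMIs. In the next pair, 310 were higher and 338 lower with the highest 5%, 179 higher with the highest 10% of each library and 287 higher in cells of 5000 to 10000 UMIs. In the last pair, 609 were higher with the highest 5%, 595 higher and 410 lower with the highest 10% of each library, 237 higher and 372 lower with median-of-ratios size factors, 652 higher in cells of 5000 to 10000 UMIs and 161 lower without Isg15. With those size factors the larger of the higher and lower counts changed sides in the first and the last pair. The cause of these shifts was not tested. No paired analysis was possible because each condition had 1 library. The 361 members of the sIL-2 + IL-21 library, with 3655047 UMIs against 14148406 in sIL-2 members, set the least precise values.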
